A study of Mus musculus with 8 samples.

Results

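Genomic imprinting leaves a gene active on the copy inherited from 1 parent and silent on the other. Many imprinted genes act on growth before and shortly after birth, and several are known to be co-expressed in fetal mouse tissues and to be switched down together as juvenile growth slows. The 10 genes described here are members of that network and were chosen by name: H19, Dlk1, Meg3, Rian, Mirg, Mest, Peg3, Plagl1, Cdkn1c and Grb10. Each symbol matched 1 gene ID, so all 10 members were found among the 49315 gene IDs of the count table, and all 10 passed the filter on low counts.

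RNA was sequenced from the calvaria (skull vault) of female C57BL6 mice aged 2 to 3 days. There were 4 mice with a global Girk3 deletion (Girk3-/-, KO) and 4 wild-type mice (WT), 1 library each. Girk3, gene symbol Kcnj9, encodes a subunit of G protein-gated inwardly rectifying potassium channels. The study concerns bone mass after its deletion, and the comparison asks which transcripts of newborn bone differ with genotype. The labels name no litter, batch or conditional allele and give no age for the single animal, so a difference of 1 day within the stated range and genotype cannot be told apart. Where nothing ties the samples to separate litters, p-values measure the spread between these 8 samples.

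Library totals were 35.4 M to 54.3 M counts, and the 10 members took 0.686% to 0.823% of the counts in KO libraries and 0.7% to 0.777% in WT libraries. The deleted gene gives no check of the labels. Kcnj9 held 2 to 9 counts in KO libraries and 0 to 4 in WT libraries, at 0.138 ± 0.092 CPM (counts scaled to a common library total) in KO against 0.0257 ± 0.0381 CPM in WT (library totals, SD, n = 4 each; exact permutation p = 0.0571, two-sided). KO below therefore means the libraries labelled so. Without KO replicate 1 the Kcnj9 difference was 0.144 CPM, at an exact permutation p of 0.0286. With any other single library left out, the exact permutation p was 0.0571 to 0.143. The 10 osteoblast markers used to check the tissue summed to 147027 to 193252 CPM in KO libraries and 169673 to 188212 CPM in WT libraries. Of these osteoblast markers, 0 were higher and 1 was lower in KO at an adjusted p under 0.05 in edgeR. Among all marker lists, that of macrophages had the smallest exact permutation p between genotypes, 0.0286 for its mean log2 CPM. That is the smallest p possible with 4 against 4 libraries, and it was not adjusted over the marker lists. The next smallest was 0.171, for the osteoblast list. The macrophage list summed to 485 to 557 CPM in KO libraries and 621 to 799 CPM in WT libraries. Of its 10 genes 0 rose and 3 fell. Skeletal muscle markers differed widely between libraries of the same genotype and bear on some of the members, as described further on. Over all 17743 tested genes, 79 were higher and 155 lower in KO at an adjusted p under 0.05, so 66.2% of calls were lower. Scaled by library totals alone, without TMM factors, 46.7% of calls were lower.

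The members fall into 3 kinds. H19, Meg3, Rian and Mirg are long non-coding RNAs expressed from the maternal copy. Cdkn1c, an inhibitor of cyclin-dependent kinases, and Grb10, an adaptor that dampens insulin and IGF receptor signalling, are maternally expressed protein genes that restrain growth, although Grb10 is paternally expressed in neurons. Dlk1, a transmembrane and secreted relative of Notch ligands, Mest, an alpha/beta hydrolase, Peg3, a zinc finger protein, and Plagl1, a zinc finger transcription factor known to act on other genes of the network, are paternally expressed. Dlk1, Meg3, Rian and Mirg lie on the plus strand of 1 imprinted domain of chromosome 12, in which Meg3, Rian and Mirg are thought to be read as parts of a common maternal transcription unit. On GRCm38 (mm10) Dlk1 spans 109452823 to 109463336, Meg3 109541001 to 109571726, Rian 109603940 to 109661716 and Mirg 109729764 to 109749460. H19 (142575529 to 142578143), Cdkn1c (143458339 to 143461050) and Peg3 (6703892 to 6730431) lie on the minus strand of chromosome 7. Mest is on chromosome 6 (30723547 to 30748465, plus strand), Plagl1 on chromosome 10 (13060504 to 13131694, plus strand) and Grb10 on chromosome 11 (11930508 to 12038683, minus strand).

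Of the 10 members, 5 contain microRNA hairpins on their own strand, 21 in all with 39 mature microRNAs in the RefSeq annotation (GRCm38.p6). H19 holds 1 hairpin, Meg3 2, Rian 3, Mirg 14 and Mest 1. Such small RNAs are cut from the host transcripts, so a few are shown 5′ to 3′ with the seed, bases 2 to 8, which pairs with targets, in capitals.
mmu-miR-675-5p (H19, chr7:142577112-142577133, minus strand): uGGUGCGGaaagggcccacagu
mmu-miR-770-5p (Meg3, chr12:109563710-109563731, plus strand): aGCACCACgugucugggccacg
mmu-miR-370-3p (Rian, chr12:109618305-109618326, plus strand): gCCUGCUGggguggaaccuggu
mmu-miR-410-3p (Mirg, chr12:109743764-109743784, plus strand): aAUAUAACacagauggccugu
mmu-miR-335-5p (Mest, chr6:30741314-30741336, plus strand): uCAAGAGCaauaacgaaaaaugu
These 5 have different seeds. Among the 39 there was 1 shared seed, that of 2 Mirg microRNAs:
mmu-miR-453: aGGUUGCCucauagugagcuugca
mmu-miR-496a-5p: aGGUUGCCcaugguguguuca
The library kit is meant for long RNA, so mature microRNAs were not measured. The count table has a row for each of the 21 hairpins, 11 of these rows were at 0 in all libraries, and the highest count was 21. That was Mir335, within an intron of Mest, with 16, 21, 3 and 20 counts in the KO libraries and 5, 5, 7 and 7 in the WT libraries. These counts overlap between genotypes and are too few for the microRNA rows to be described further.

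No member passed the test for a difference between the genotypes. At an adjusted p under 0.05 in edgeR's quasi-likelihood test 0 rose and 0 fell, where 1.32% of all tested genes were called, 0.445% higher and 0.874% lower in KO. At an unadjusted p under 0.05 there were also 0 of 10 members, where 17.4% of all tested genes passed, and DESeq2 and limma-voom called 0 members each, where they called 5.37% and 1.29% of all tested genes. In 0 of 10 members did the KO libraries all lie on one side of the WT libraries, against 10.6% of all tested genes. The log2 changes ran from -0.15 to 0.10 with a median of -0.012, beside a median of -0.00029 over all tested genes. With 10 genes, 4 of them from 1 domain, these shares are a description and no test of the group.

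**Figure D1:**
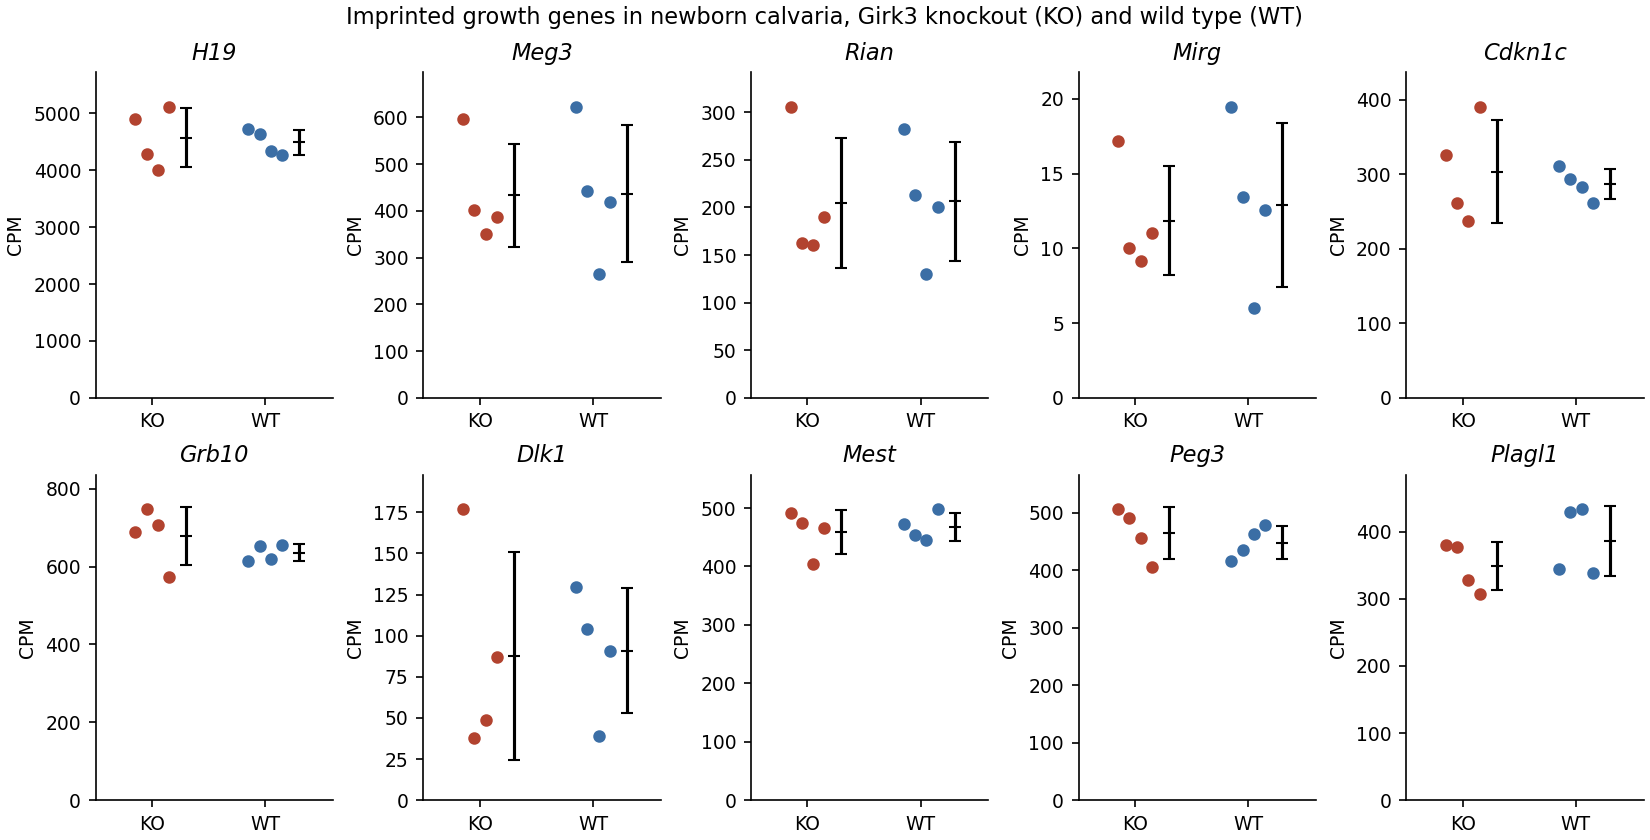
Scaled counts (CPM with TMM factors, linear axis from 0) of each of the 10 members in 4 KO libraries (left, red) and 4 WT libraries (right, blue); black bars are the mean ± SD. The groups overlap for all 10 genes, and Dlk1 shows the widest spread within a genotype, 37.9 to 176.8 CPM among KO libraries.

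H19, a spliced RNA that is among the most abundant transcripts of fetal mesoderm, had the highest level per length of all members. It was at 4903, 4282, 3996 and 5107 CPM in KO replicates 1 to 4, and at 4719, 4635, 4340 and 4273 CPM in WT replicates 1 to 4. The KO libraries held both the highest and the lowest value, and the groups overlapped. The log2 change was 0.026 ± 0.0896 (SE, edgeR adjusted p = 0.914), and its 95% interval corresponds to 0.889-fold to 1.16-fold.

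Cdkn1c, whose protein p57 holds cells out of the cycle, was at 325.8, 261.6, 236.8 and 389.9 CPM in KO libraries and at 310.5, 293.2, 282.7 and 261.3 CPM in WT libraries. KO replicate 4 was the highest and KO replicate 3 the lowest of the 8, so the KO spread (SD 68.7 CPM) enclosed all WT values. Its log2 change was 0.081 ± 0.137 (SE, adjusted p = 0.806). Of its exon bases, 30.7% overlap the gene model Gm44732 on the opposite strand, which held at most 1.06 CPM in any library. Grb10 was at 688.1, 747, 707.8 and 573.7 CPM in KO libraries and at 614.5, 652.6, 620 and 656.4 CPM in WT libraries. In KO replicates 1 to 3 it lay above all WT libraries and in KO replicate 4 below them. Its log2 change was 0.095 ± 0.085 (SE, adjusted p = 0.605), with a 95% interval of 0.94-fold to 1.21-fold.

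Among the paternally expressed members, Mest was the steadiest, at 491.8, 473.9, 403.9 and 465.1 CPM in KO libraries and at 472.9, 453.6, 444.9 and 497.7 CPM in WT libraries. Its highest library exceeded its lowest 1.23-fold, and the log2 change was -0.027 ± 0.0779 (SE, adjusted p = 0.895). Copg2, on the opposite strand, overlaps 23.1% of the Mest exon bases and averaged 8.89 CPM per kb of exon in KO and 9.14 CPM per kb in WT, where Mest averaged 117 CPM per kb over all libraries. Peg3 was at 505.8, 491, 455.5 and 405.4 CPM in KO libraries and at 415.8, 434.8, 463.4 and 478.3 CPM in WT libraries, and its log2 change was 0.052 ± 0.0839 (SE, adjusted p = 0.795). The groups overlapped for Peg3, with KO replicates 1 and 2 above all WT libraries and KO replicate 4 below them. Plagl1 had the smallest adjusted p of the members, 0.493, with a log2 change of -0.15 ± 0.105 (SE). It was at 379.6, 377, 328.4 and 307.5 CPM in KO libraries, against 344.5, 428.7, 433 and 337.8 CPM in WT libraries. WT replicates 2 and 3 lay above all other libraries, while WT replicates 1 and 4 lay within the KO range.

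The 4 members of the chromosome 12 domain varied more between libraries than the others. Dlk1 was at 176.8, 37.9, 48.7 and 87 CPM in KO libraries and at 129.8, 104.2, 39.1 and 90.7 CPM in WT libraries. Its highest library was 4.66-fold above its lowest. KO replicates 2 and 3 and WT replicate 3 formed the low end, all under 50 CPM, and KO replicate 1 and WT replicate 1 the high end. The log2 change between genotypes was -0.055 ± 0.602 (SE, adjusted p = 0.975), and the 95% interval reaches from 0.35-fold to 2.65-fold, so a 2-fold difference of Dlk1 lies within it.

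Meg3, a nuclear RNA, was at 595.7, 400.9, 350.7 and 386.2 CPM in KO libraries and at 621.6, 441.7, 265.3 and 418.8 CPM in WT libraries. Rian, the host of box C/D small nucleolar RNAs as well as microRNAs, was at 305.2, 163.1, 161 and 189.7 CPM in KO libraries and at 282.4, 213, 129.9 and 200.6 CPM in WT libraries. Mirg was at 17.2, 10, 9.15 and 11 CPM in KO libraries and at 19.4, 13.4, 6.04 and 12.6 CPM in WT libraries. In all 3 RNAs KO replicate 1 and WT replicate 1 were the 2 highest libraries and WT replicate 3 the lowest. Their highest libraries were 2.34-fold, 2.35-fold and 3.22-fold above their lowest. Their log2 changes between genotypes were -0.012 ± 0.277, -0.012 ± 0.297 and -0.12 ± 0.365 (SE; adjusted p = 0.989, 0.989 and 0.9). These 4 genes reached at least 2-fold between the highest and the lowest library. Of the 9843 tested genes with a mean of at least 10 CPM, 2.66% did, and the median was 1.31-fold. The other 6 members ranged 1.23-fold to 1.65-fold.

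**Figure D2:**
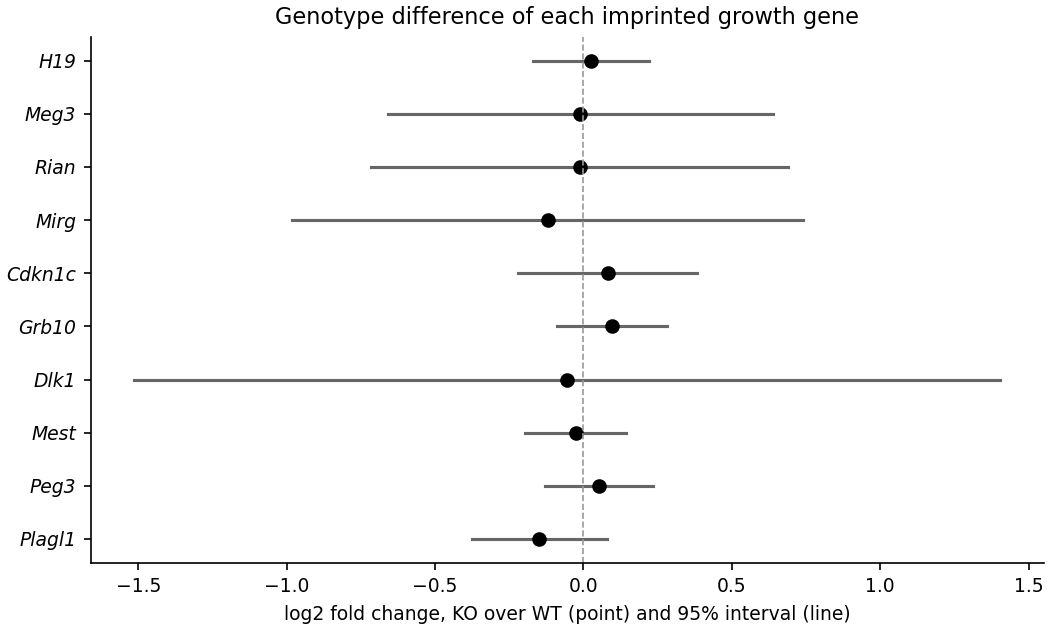
Log2 fold change of KO over WT (points) with its 95% interval from the fit over all tested genes (lines), on a linear axis of log2 units. The intervals of all 10 genes include 0, and those of Dlk1, Mirg, Rian and Meg3 are the widest, with standard errors of 0.602, 0.365, 0.297 and 0.277.

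The libraries high in these 4 genes were mostly those with much skeletal muscle RNA, and the low ones those with little. Exceptions are given beside the values. A list of 20 muscle genes, all of them tested, 0 of them called and 0 of them at 0 in all libraries, summed to 94.2 to 3481 CPM in KO libraries and 48 to 2428 CPM in WT libraries. The mean log2 CPM of the list was 6.21, 1.30, 2.31 and 4.43 in KO replicates 1 to 4 and 5.64, 5.41, -0.56 and 5.61 in WT replicates 1 to 4. Its values overlapped between the genotypes (3.56 ± 2.2 in KO and 4.03 ± 3.06 in WT, SD, n = 4 each; exact permutation p = 0.829). A second list, 10 genes of myogenic progenitors, took the same 3 lowest libraries, at -1.74 and -1.06 in KO replicates 2 and 3 and -3.12 in WT replicate 3, against 0.40 to 2.23 in the other 5. For Dlk1, Rian and Mirg the 3 lowest libraries were those 3, and for Meg3 they were WT replicate 3, KO replicate 3 and KO replicate 4. Among the KO libraries the order of Dlk1 was that of the muscle list from end to end, with replicate 1 highest, then 4, 3 and 2. Among the WT libraries replicate 1 was highest and replicate 3 lowest in both, but Dlk1 was higher in replicate 2 than in replicate 4, while the muscle list was higher in replicate 4. Over all libraries the muscle list was highest in KO replicate 1 and lowest in WT replicate 3, but Dlk1 was lowest in KO replicate 2. Meg3 and Mirg were highest in WT replicate 1. Meg3, Rian and Mirg were higher in KO replicate 2 than in KO replicate 3, opposite to the muscle list. WT replicates 1, 2 and 4 had muscle list values of 5.64, 5.41 and 5.61, while Meg3 was at 621.6, 441.7 and 418.8 CPM. In bulk RNA, fewer cells of a type and less RNA per cell cannot be told apart.

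With genotype held in the model, the fitted log2 change per log2 unit of the muscle score was 0.31 ± 0.0427 for Dlk1, 0.20 ± 0.0333 for Mirg, 0.15 ± 0.0259 for Rian and 0.14 ± 0.0302 for Meg3 (SE). Larger slopes were found in 1.43%, 2.31%, 3.16% and 3.69% of all tested genes, and the median slope was 0.00022. The libraries fall into separate ranges of the score, so the slopes are given as a description with no test. The other 6 members had slopes from -0.024 for Plagl1 to 0.038 for Cdkn1c. With the muscle score as a covariate, the genotype difference became -0.032 ± 0.193 for Dlk1, 0.081 ± 0.137 for Meg3, 0.057 ± 0.119 for Rian and 0.033 ± 0.148 for Mirg (log2, SE; adjusted p = 0.951, 0.8, 0.843 and 0.932). The standard errors were smaller than without the covariate in all 4, and the sign of Meg3, Rian and Mirg turned. With this covariate 0 of the 4 were called, where 302 of 17743 tested genes were. With so small a share called, 0 of 4 does not set these genes apart. Leaving out the 3 libraries low in muscle RNA left 2 KO and 3 WT libraries and 0 members called, with a Dlk1 change of 0.29 ± 0.332 (SE, adjusted p = 0.839). Only 8 of 18435 tested genes were called there, so 0 of 10 does not set the members apart. At an unadjusted p under 0.05 there was 1 member. The smallest adjusted p of a member was that of Cdkn1c, 0.527, at a log2 change of 0.32.

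**Figure D3:**
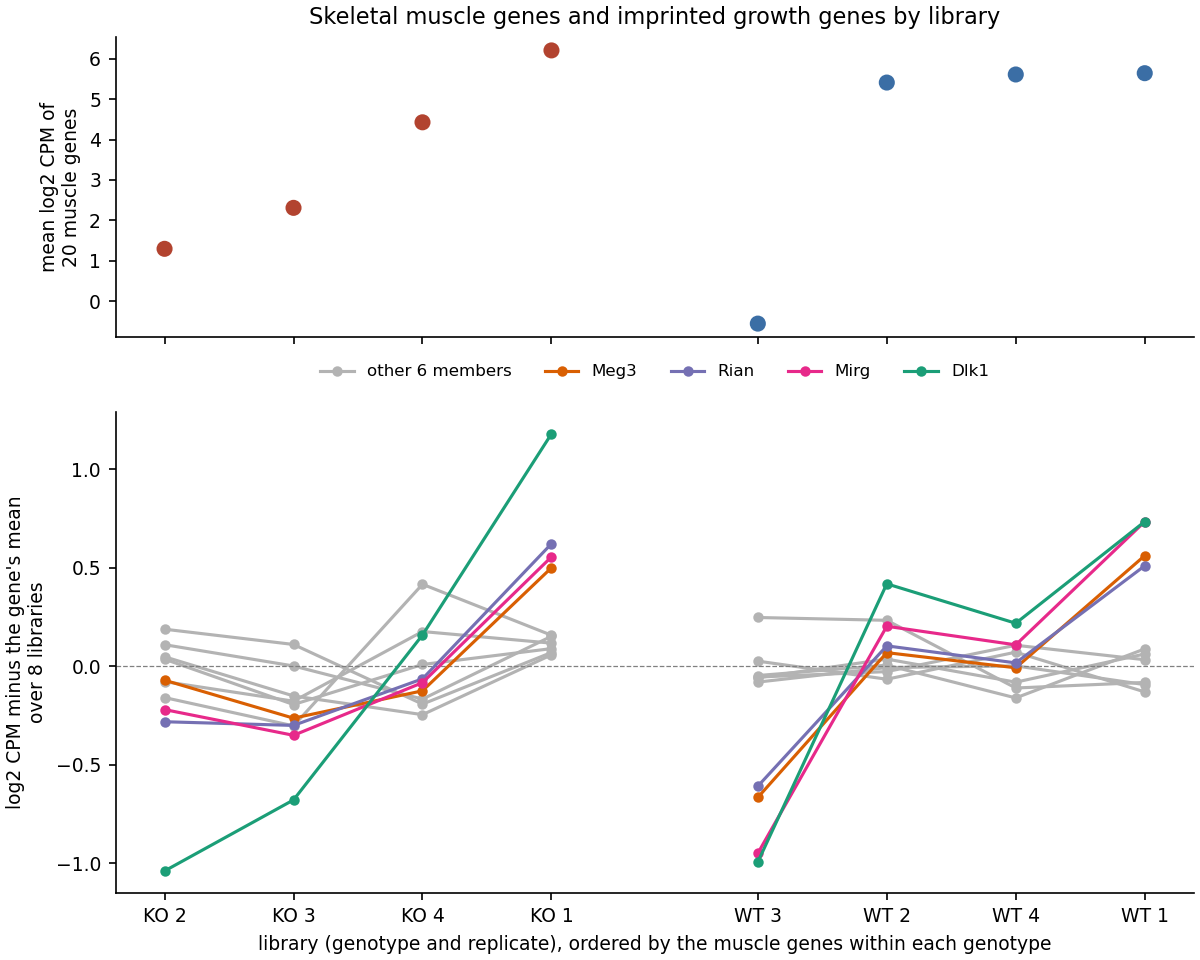
Top, the mean log2 CPM of 20 skeletal muscle genes in each library; bottom, log2 CPM of each member minus its own mean over 8 libraries, with the chromosome 12 members in colour and the other 6 in grey. Libraries are ordered by the muscle genes within KO (left) and WT (right). Dlk1 spans from -1.04 to 1.18, while the grey lines stay between -0.30 and 0.42.

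Likeness of pattern to these 4 genes was measured by the root mean square difference of centred log2 CPM over the 8 libraries. The 13009 candidates were tested genes of at least 1 CPM on average. The 10 members and genes with clone or model numbers as symbols were left out. Members were therefore not ranked as neighbours of each other, and a domain partner may lie nearer than the genes named here. For Dlk1 the nearest candidates were Eno3, Tmem38a and Actn3, at differences of 0.16, 0.18 and 0.19. The spread of Dlk1 itself was 0.77. Eno3 and Actn3 belong to the muscle list. For Meg3 they were Coro6, Klhl30 and Ank1, at 0.11 to 0.14, and for Rian they were Coro6, Prkaa2 and Galnt17, at 0.082 to 0.12. For Mirg they were Prox1, Klhl30 and Fabp3, at 0.15 to 0.16. None of these 10 neighbours was called between genotypes in edgeR, the smallest adjusted p being 0.714 for Prkaa2. They were picked for likeness to 4 genes that were not called themselves. Their lack of calls therefore follows largely from the choice and is no separate result.

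Ratios of counts within a library need no scaling between libraries, and 5 were compared between genotypes. Rian to Meg3 was nearly constant, at 0.512, 0.407, 0.459 and 0.491 in KO libraries and 0.454, 0.482, 0.490 and 0.479 in WT libraries. The highest ratio was 1.26-fold above the lowest, although Meg3 and Rian each varied by more than 2-fold. Mirg to Meg3 was 0.0288, 0.025, 0.0261 and 0.0285 in KO libraries and 0.0313, 0.0304, 0.0228 and 0.0301 in WT libraries, a range of 1.37-fold. Dlk1 to Meg3, a pair expressed from opposite parental copies, ranged over 3.14-fold. It was 0.297, 0.0946, 0.139 and 0.225 in KO libraries and 0.209, 0.236, 0.147 and 0.217 in WT libraries, lowest in the 3 libraries with the least muscle RNA. None of these 3 ratios passed a test between genotypes (exact permutation p = 0.8, 0.629 and 0.6, two-sided; adjusted over the 5 ratios 0.8, 0.786 and 0.786; the smallest p possible is 0.0286).

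**Figure D4:**
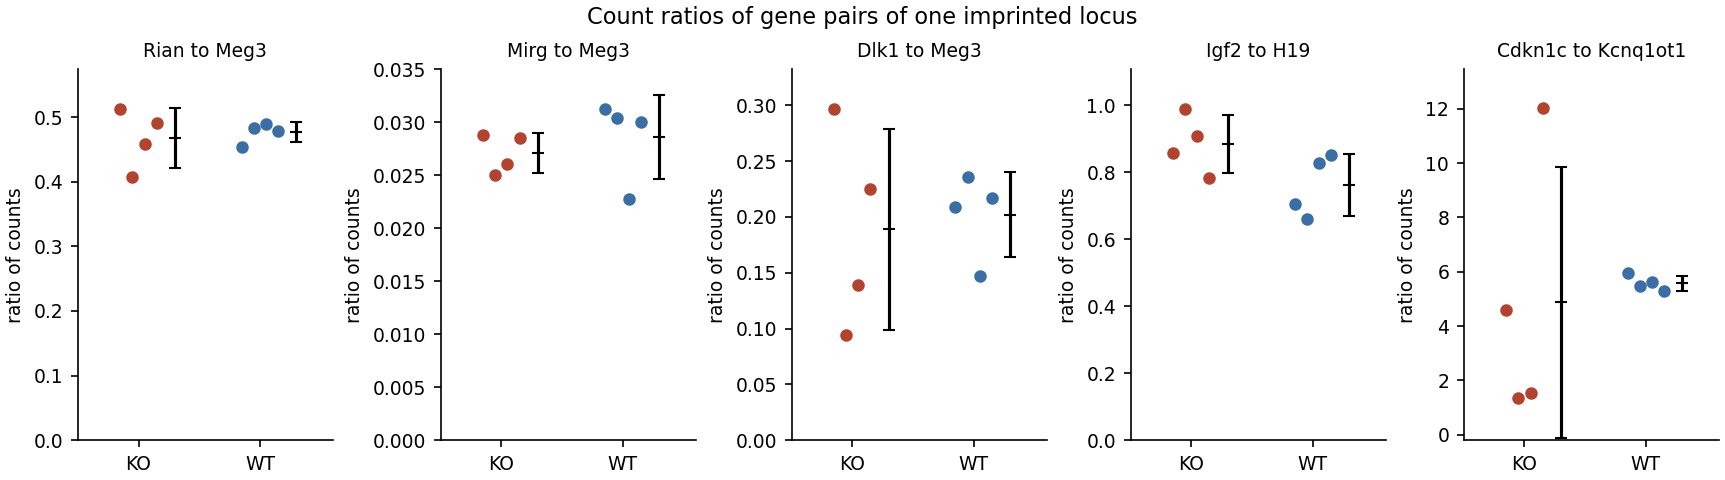
Ratio of raw counts of 2 genes of the same imprinted domain in each KO library (left, red) and WT library (right, blue), on linear axes; black bars are the mean ± SD. Rian to Meg3 stays between 0.407 and 0.512, while Cdkn1c to Kcnq1ot1 runs from 1.34 to 12 among KO libraries.

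The promoters of the chromosome 12 genes are shown because these genes moved together across libraries. RefSeq windows of 300 bases, from 250 before to 50 after a start site (GRCm38.p6), were at hand for 8 of the 10 members, 12 windows in all. They were searched on both strands for TGACGTCA (the cAMP response element), TATAAA (the TATA box), CAGCTG (an E-box bound by myogenic factors), CTA followed 4 bases on by TAG (the ends of the MEF2 motif) and GGGGCCCC (bound by PLAGL1). Capitals mark the matches.
Meg3 (chr12:109540746-109541045, plus strand): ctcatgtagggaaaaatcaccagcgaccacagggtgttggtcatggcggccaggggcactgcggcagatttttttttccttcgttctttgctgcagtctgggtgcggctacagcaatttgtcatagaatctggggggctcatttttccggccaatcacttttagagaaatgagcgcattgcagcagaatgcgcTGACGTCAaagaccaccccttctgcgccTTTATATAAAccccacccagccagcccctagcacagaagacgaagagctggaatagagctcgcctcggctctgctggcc
Dlk1 (chr12:109452573-109452872, plus strand): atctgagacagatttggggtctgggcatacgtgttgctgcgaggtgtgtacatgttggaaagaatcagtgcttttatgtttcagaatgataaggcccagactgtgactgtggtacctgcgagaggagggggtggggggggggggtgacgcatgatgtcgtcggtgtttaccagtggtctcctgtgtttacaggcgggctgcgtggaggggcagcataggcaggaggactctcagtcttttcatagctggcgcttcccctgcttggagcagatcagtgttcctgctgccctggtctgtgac
The Meg3 window holds TGACGTCA at position -57 and TATAAA at position -25, overlapped by a reverse match at -29; TGACGTCA occurs in 1.79% and TATAAA in 13.6% of all 32851 windows. None of the 5 motifs matched in the Dlk1 window, in the window of the other Meg3 start site or in those of Rian and Mirg. The Mirg window (109734731 to 109735030) lies within the gene, which starts at 109729764, and it contains mmu-miR-668-3p. It therefore does not describe the sequence before the first base of Mirg. Elsewhere Peg3 held TGACGTCA at -178 and GGGGCCCC at -201, 1 of 3 Mest windows held CAGCTG at -135, and 1 of 2 Grb10 windows held the MEF2 ends at -24. The shares of all windows were 1.08% for GGGGCCCC, 16.3% for CAGCTG and 3.69% for the MEF2 ends. A match describes these letters and not a bound site.

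Levels of different genes were compared as CPM per kb of annotated exon, which is low for genes whose annotation joins many alternative exons, such as Meg3. H19 was the highest member at 1842 ± 151 CPM per kb (SD over 8 libraries), rank 12 among 17702 tested genes with a length. Then came Cdkn1c at 145 ± 23.4, Mest at 117 ± 7.52, Grb10 at 72.3 ± 6.14, Plagl1 at 46.9 ± 5.88 and Peg3 at 34.2 ± 2.67 CPM per kb. The chromosome 12 genes were lowest, with Meg3 at 24.1 ± 6.62, Dlk1 at 15.8 ± 8.54, Rian at 11.3 ± 3.32 and Mirg at 1.69 ± 0.595 CPM per kb. Ranges over the 8 libraries overlapped for the neighbours Cdkn1c and Mest, Peg3 and Meg3, Meg3 and Dlk1, and Dlk1 and Rian; the other neighbours in this order did not overlap.

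The other imprinted genes of the mouse give the surroundings of the members. Of 45 listed, 41 passed the filter, 0 rose and 0 fell in edgeR, beside 1.32% of all tested genes called. Without adjustment, 5 of the 41 had a p under 0.05, beside 17.4% of all tested genes. DESeq2 called 1 of the 41, Igf2, and limma-voom 0, beside 5.37% and 1.29% of all tested genes. Their median log2 change was 0.0041, and 22 of 41 were above 0. Without KO replicate 4, 1 of these genes was called, Airn, beside 608 of 18033 tested genes. Phlda2, Dio3, Zim3 and Snurf fell below the filter; Phlda2, a placental growth restrainer, held at most 10 counts in any library.

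Igf2, the fetal growth factor gene that shares enhancers with H19 and is expressed from the paternal copy, was at 4207, 4232, 3622 and 4001 CPM in KO libraries and at 3320, 3059, 3596 and 3631 CPM in WT libraries. KO replicate 3 lay just under WT replicate 4, and the other KO libraries lay above all WT libraries. The log2 change was 0.24 ± 0.0834 (SE, edgeR adjusted p = 0.174). DESeq2 gave 0.25 with an adjusted p of 0.0434, the lowest of 10 other settings, whose adjusted p ran up to 0.532; leaving out single libraries gave 0.136 to 0.387. A transcript model on the same strand, Gm49394, shares 62.8% of the Igf2 exon bases, so the level is less certain. The Igf2 to H19 ratio was 0.858, 0.988, 0.906 and 0.783 in KO libraries, against 0.704, 0.66, 0.829 and 0.85 in WT libraries (exact permutation p = 0.114, adjusted over 5 ratios 0.571). Igf2r, the receptor that clears IGF2, was at 339.6, 317, 299.4 and 302.7 CPM in KO libraries and at 240.1, 246.4, 295.6 and 322.6 CPM in WT libraries (log2 change 0.19 ± 0.0978, SE, adjusted p = 0.342).

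Kcnq1ot1, the paternally expressed antisense RNA whose transcription silences Cdkn1c on the same chromosome copy, was at 71, 194.7, 154.2 and 32.4 CPM in KO libraries and at 52.1, 53.6, 50.4 and 49.3 CPM in WT libraries. The WT libraries lay close together, and the KO libraries lay on both sides of them. The log2 change was 1.14 ± 0.542 (SE, adjusted p = 0.343). KO replicates 2 and 3, the highest, were low in muscle RNA, while WT replicate 3, the lowest in muscle RNA, was at the level of the other WT libraries. With the muscle covariate the log2 change was 0.93 (adjusted p = 0.442). Without the 3 muscle-poor libraries, which takes out those KO libraries, it was 0.011 (adjusted p = 0.994). The Cdkn1c to Kcnq1ot1 ratio was 4.59, 1.34, 1.54 and 12 in KO libraries and 5.95, 5.47, 5.61 and 5.3 in WT libraries (exact permutation p = 0.314, adjusted over 5 ratios 0.786). Without KO replicate 4, the ratios of the other 3 KO libraries lay below all WT ratios, with a difference in mean log2 ratio of -1.40 (exact permutation p = 0.0286, the smallest possible there). The difference was -0.35 without KO replicate 2 and -0.41 without KO replicate 3 (exact permutation p = 0.6 each), and it turned to 0.41 without the 3 muscle-poor libraries (exact permutation p = 0.7).

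Rtl1, a retrotransposon-derived gene on the opposite strand of the chromosome 12 domain, varied 13.5-fold over the 8 libraries. It was at 14.1, 2.04, 3.37 and 4.87 CPM in KO libraries and at 15.4, 10.3, 1.14 and 10.9 CPM in WT libraries, with its 3 lowest values in the 3 libraries of least muscle RNA (log2 change -0.63 ± 0.892, SE, adjusted p = 0.767). That change was -1.48 without KO replicate 1 and -0.29 without WT replicate 1 (adjusted p = 0.466 and 0.928). Its slope on the muscle score, 0.55 ± 0.0395 (SE), was larger than that of any member. Zim1, next to Peg3 and maternally expressed, was at 98 ± 15.2 CPM in KO and 91.6 ± 13.5 CPM in WT (SD, n = 4 each; adjusted p = 0.736). Ndn, which encodes necdin, was at 53.5 ± 7.54 CPM in KO and 65.4 ± 10.1 CPM in WT (log2 change -0.29 ± 0.124, SE, adjusted p = 0.26). It was called with the skin covariate alone, at an adjusted p of 0.0499, the lowest of 10 other settings, whose adjusted p ran up to 0.597. Gnas (log2 change 0.027 ± 0.0708, SE), Peg10 (-0.20 ± 0.166), Snrpn (-0.27 ± 0.183) and Nnat (-0.52 ± 0.722) did not pass, at adjusted p of 0.883, 0.576, 0.481 and 0.762. Named after their values were seen, Rasgrf1 and Inpp5f were lower and Sfmbt2 higher in all 4 KO libraries than in all 4 WT libraries, at log2 changes of -0.47, -0.13 and 0.24 and adjusted p of 0.146, 0.378 and 0.345 in edgeR. These are 3 of 41 genes, beside the 10.6% of all tested genes without overlap, 4.63% with KO higher.

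**Figure D5:**
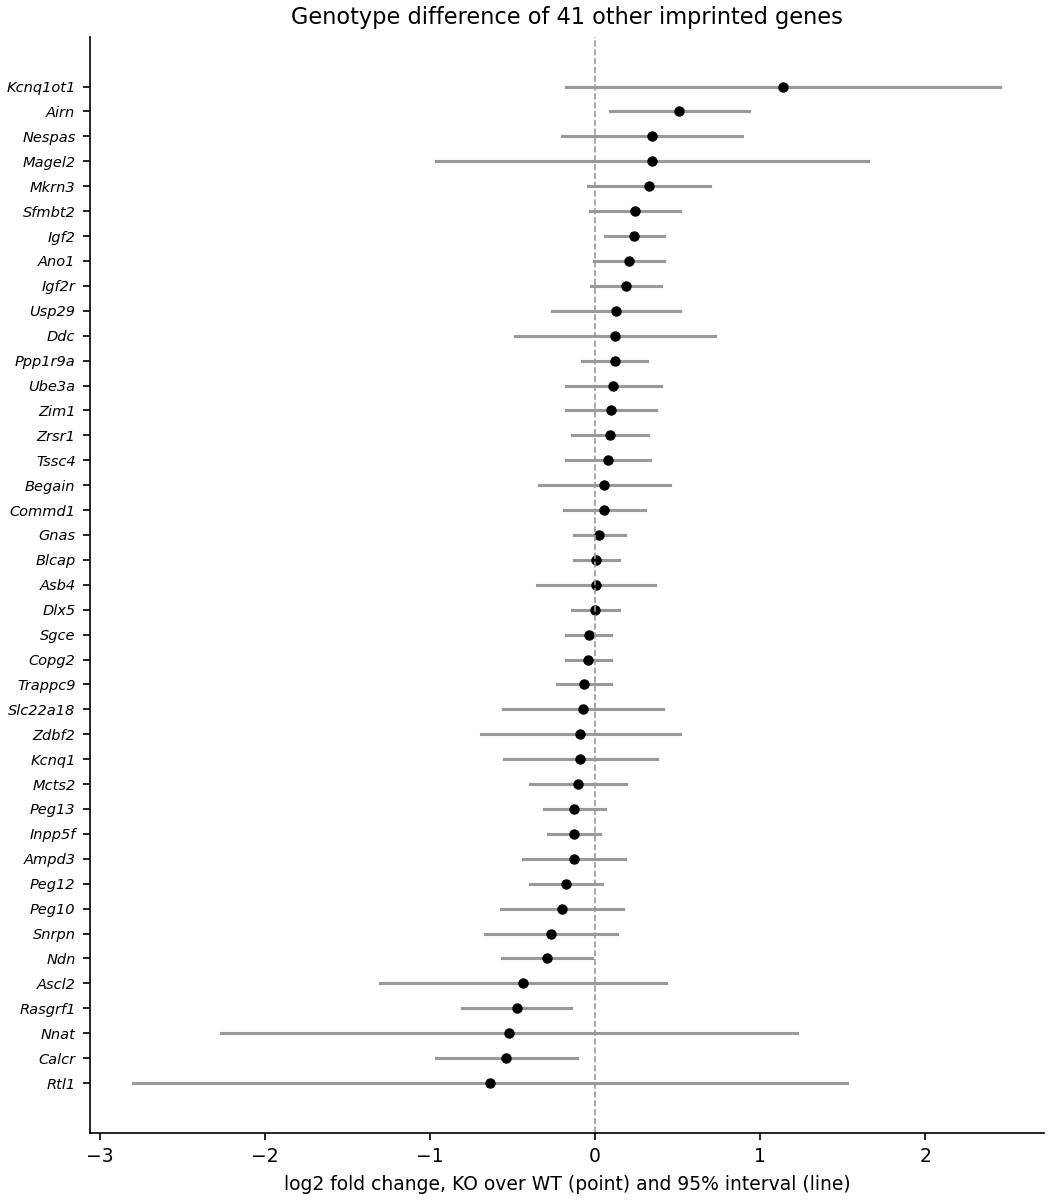
Log2 fold change of KO over WT (points) with its 95% interval (lines) for the 41 tested imprinted genes outside the 10 members, sorted from highest to lowest. The values run from 1.14 for Kcnq1ot1 to -0.63 for Rtl1, and none passed an adjusted p of 0.05 in edgeR.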

How the data were processed

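RNA of 8 libraries was counted per Ensembl gene ID. The deposited values are raw, unnormalized counts. The submitters' processing notes list STAR 2.5.2b, bcl2fastq 2.17 and featureCounts (Subread 1.5.2) with build mm10. Not given in the sources used here are the annotation release and the strand setting, and reads of opposite-strand overlapping genes may be mixed. Groups and replicate numbers came from the titles. The members and gene lists were chosen with earlier results of these data known.

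Symbols were found for 48970 of 49315 IDs, and positions and exon lengths came from GENCODE M21, on the same build. Genes were kept with edgeR's filterByExpr (minimum count 10, minimum total 15), which left 17743. KO was tested against WT by edgeR 4.0.16's quasi-likelihood method (TMM factors 0.972 to 1.04, robust, R 4.3.3), two-sided, Benjamini-Hochberg adjusted over all tested genes, and SE and 95% intervals came from the fit. CPM were TMM-scaled, except for Kcnj9 (library totals); log2 CPM added 0.5 counts. Ratios and Kcnj9 were compared by exact permutation. A count of 3, the floor, is at most 0.0848 CPM. The test was tried on simulated counts. Alternatives included DESeq2 1.42.0, limma-voom (limma 3.58.1), other scalings and filters, muscle and skin covariates, a block on replicate number, and libraries left out. The named genes were the members, Kcnj9, 11 other imprinted genes fixed by name and any listed imprinted gene that passed. Also named were the 3 non-member genes nearest in pattern to each member that varied at least 2-fold. Figures were drawn with matplotlib 3.10.9.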

Additional observations from a re-analysis of the deposited data

Results flagged for a closer look

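In 4 of 74 groups of 4 libraries 1 library stood apart from its group; about 3.7 such groups, 1 in 20, arise by chance. Nnat was at 21 CPM in WT replicate 1, against 3.17 to 3.77 CPM in the other WT libraries. The Mirg to Meg3 ratio was 0.0228 in WT replicate 3, against 0.0301 to 0.0313. The skeletal muscle list stood at -0.56 (mean log2 CPM) in WT replicate 3, against 5.41 to 5.64, and the myogenic progenitor list at -3.12 in the same library, against 1.19 to 1.39. The share of the low muscle content of WT replicate 3 in its Mirg to Meg3 ratio was not tested.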

How the results depend on the processing

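No member was called under any of the 10 other settings or with any single library left out. The count of called genes over all tested genes was 234; it was 355 without a low-count filter, 952 in DESeq2, 126 with the replicate block, 548 with the skin covariate and 8 without the 3 muscle-poor libraries, and 57 to 608 when single libraries were left out (57, 82 and 608 without KO replicates 2, 3 and 4, and 79, 75 and 105 without WT replicates 2, 3 and 4). Other imprinted genes called numbered 0, but 1 in DESeq2 and 1 with the skin covariate, and 0 to 1 with single libraries left out. Replicate numbers gave no consistent pairing of the samples. Correlations of deviations were 0.26, -0.19, 0.32 and 0.014 for numbers 1 to 4, and 1 of 4 KO libraries correlated best with its own number. With the replicate block the SE fell from 0.277 to 0.102 for Meg3 and from 0.297 to 0.110 for Rian. It also fell from 0.365 to 0.156 for Mirg and from 0.602 to 0.389 for Dlk1. Among the other members it rose for Peg3 and Grb10. The cause was not tested.

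Some log2 changes turned sign, most of them close to 0; the exceptions were Nnat (-0.52, and 0.67 without WT replicate 1), the Dlk1 to Meg3 ratio (-0.21) and the Cdkn1c to Kcnq1ot1 ratio (-0.77, and 0.41 without the muscle-poor libraries). The cause was not tested. With library totals Meg3 was at 0.036, Rian at 0.033 and Mest at 0.026. In limma-voom Meg3 was at 0.021, and with the replicate block Meg3 was at 0.0204 and Nnat at 0.014. With the muscle covariate Meg3 was at 0.081, Rian at 0.057 and Mirg at 0.033, and with the skin covariate Dlk1 at 0.0011, Meg3 at 0.015 and Rian at 0.0069. Without the muscle-poor libraries Dlk1 was at 0.29, Rian at 0.10, Mest at 0.019, Grb10 at -0.016, and the ratios Rian to Meg3, Dlk1 to Meg3 and Cdkn1c to Kcnq1ot1 at 0.089, 0.23 and 0.41. Leaving out single libraries gave -0.026 to 0.084 for H19, -0.66 to 0.20 for Dlk1, -0.20 to 0.21 for Meg3, -0.27 to 0.17 for Rian, -0.36 to 0.15 for Mirg, -0.063 to 0.029 for Mest, -0.057 to 0.18 for Cdkn1c, -0.0056 to 0.17 for Zim1, -0.015 to 0.055 for Gnas and -0.78 to 0.67 for Nnat. For ratios it gave -0.079 to 0.032 for Rian to Meg3, -0.47 to 0.078 for Dlk1 to Meg3 and -1.40 to -0.35 for Cdkn1c to Kcnq1ot1, without a change of sign in the last. The Kcnj9 difference stayed positive, at 0.0729 to 0.144 CPM.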

Other observations

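Zim3, an imprinted gene of chromosome 7 that failed the count filter, held 14 counts in KO replicate 4 and 0 in the other 7 libraries. That library had the lowest total, 35.4 M counts, and the most genes with counts, 28520, where the other 7 had 24545 to 25729. It was also the highest of the 8 libraries for H19 and Cdkn1c and the lowest for Grb10, Peg3, Plagl1 and Kcnq1ot1. These genes were picked out after their values were seen. The share of all tested genes for which this library was the extreme was not counted.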
